A study of Mus musculus with 16 samples.

Results

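The set described here holds 10 genes: Tpsab1, Tpsb2, Cma1, Mcpt4, Cpa3, Kit, Ms4a2, Fcer1a, Mrgprb1 and Hdc, which are commonly used to recognise mast cells. They are 10 of the 54838 gene rows of the count table, found by matching each Ensembl identifier to its symbol in the GENCODE M21 annotation of the mouse. The genes were chosen from earlier results on these same libraries, in which all 4 groups had been compared. The values and calls of the 10 genes are therefore a description of these libraries and not a test.

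Each of the 16 libraries came from the adrenal gland tissue of an individual mouse. The mice were 4 weeks old and of mixed genetic background. Both sexes were sampled, and in each sex 4 mice were controls and 4 carried a gain of function of Rspo1 (GOF), the gene of the Wnt agonist R-spondin 1. Which promoter or cell type drives the gain of function, how it was built and which alleles the controls carry are not given in the sources used here. The labels describe sex as female or male and name no batch.

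Mast cells are tissue-resident immune cells that mature from blood-borne precursors under stem cell factor, the ligand of the receptor KIT. Their granules store proteases bound to heparin, together with histamine, and empty when IgE bound to its high-affinity receptor is crosslinked. Mouse connective tissue mast cells carry tryptases, chymases and carboxypeptidase A3, and sense cationic peptides through MRGPR receptors. In the adrenal gland they are known from the capsule and its surroundings, and mast cell mediators such as serotonin are known to act on steroid-producing cells.

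Sequence upstream of the start was looked up for the members in RefSeq promoter windows on GRCm38.p6, and 8 of the 10 were matched. Tpsab1 and Tpsb2 were not matched. The windows of 4 members that were lower together in male GOF glands are shown because GATA factors are well-known regulators of mast cell genes. Capitals mark a match on either strand to the word AGATAA or the word AGATAG, or to TGATAA or its variant TGATAG, and each window holds the 250 bases before the start, written 5′ to 3′ on the strand of the gene.
Cpa3 (chr3:20242182-20242431, minus strand): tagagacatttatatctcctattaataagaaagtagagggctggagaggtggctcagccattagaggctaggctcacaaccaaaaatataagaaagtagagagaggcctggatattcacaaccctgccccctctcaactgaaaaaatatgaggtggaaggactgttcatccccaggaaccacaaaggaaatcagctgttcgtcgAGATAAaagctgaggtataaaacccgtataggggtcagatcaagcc
Cma1 (chr14:55944676-55944925, minus strand): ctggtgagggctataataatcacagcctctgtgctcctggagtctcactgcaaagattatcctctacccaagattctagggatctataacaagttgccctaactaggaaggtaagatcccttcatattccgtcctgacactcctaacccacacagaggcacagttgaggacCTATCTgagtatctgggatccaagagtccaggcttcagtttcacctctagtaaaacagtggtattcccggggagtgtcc
Mcpt4 (chr14:56062311-56062560, minus strand): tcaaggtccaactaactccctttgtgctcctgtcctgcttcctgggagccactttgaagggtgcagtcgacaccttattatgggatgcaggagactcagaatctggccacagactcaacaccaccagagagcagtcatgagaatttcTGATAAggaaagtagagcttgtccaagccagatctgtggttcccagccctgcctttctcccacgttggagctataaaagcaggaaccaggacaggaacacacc
Mrgprb1 (chr7:48456343-48456592, minus strand): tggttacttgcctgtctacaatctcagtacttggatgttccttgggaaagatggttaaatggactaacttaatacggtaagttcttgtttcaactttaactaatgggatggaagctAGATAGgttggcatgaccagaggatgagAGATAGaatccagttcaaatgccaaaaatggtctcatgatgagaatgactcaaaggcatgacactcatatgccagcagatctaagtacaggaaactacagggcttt

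The marked word begins 46 bases before the start in Cpa3, 79 in Cma1 and 103 in Mcpt4. Mrgprb1 holds it at 134 and at 106 bases. At least 1 such word was present in 7 of the 8 matched members, against 26.5% of 32851 windows of the same length. Ms4a2 held 3 of them, Fcer1a 1 and Hdc 1, while the 2 windows listed for Kit held none. The word TATAAA, searched on both strands, was present in 3 of the 8 members, Cpa3, Mcpt4 and Fcer1a, against 12.4% of all windows. The E-box words CATGTG and CACGTG, searched on both strands, were present in 1 of the 8, Fcer1a, against 17.6%. Some words can overlap each other, and a match describes these letters only.

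Library totals ranged from 31275146 to 43003968 counts. Levels below are CPM, reads scaled to library totals that were adjusted by the TMM method of edgeR, and n is 4 libraries per group throughout. As a check of the labels, Rspo1 itself ranged from 3.19 to 48.2 CPM in the 8 control libraries and from 353 to 971 CPM in the 8 GOF libraries. The Y-linked Ddx3y was at 0 in each female library and above 137 CPM in each male one. Several libraries stood apart in transcripts of other cells. A neutrophil list of 6 genes summed to 81.0 CPM in female GOF 1 and 118 CPM in male GOF 2, with a median of 3.42 and 4.18 CPM in their groups, and to 62.15 CPM in male control 2, where the other male controls did not exceed 11.53 CPM. A liver list summed to 7743 CPM in male control 2, and a kidney tubule list to 804 CPM in the first of the female controls and to 139.8 CPM in the third.

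The granule proteases are described first. In male GOF glands all 5 were lower than in male controls, in each library, and their summed level was 9.94-fold lower. In female GOF glands the same 5 genes were higher on average, 2.58-fold for the sum, but with a wide spread that overlapped the controls. The summed level was 6.01 ± 2.96 CPM (SD, n = 4) in female controls, 15.5 ± 10.6 in female GOF, 12.4 ± 1.14 in male controls and 1.24 ± 0.774 in male GOF. Less RNA per mast cell and fewer mast cells cannot be told apart in RNA from whole glands.

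Tpsb2 encodes a tryptase, a trypsin-like protease released from the granules as a tetramer. It stood at 1.27, 1.97, 0.615 and 1.17 CPM in female controls 1 to 4 and at 7.65, 5.86, 0.716 and 3.31 CPM in female GOF 1 to 4. Male controls 1 to 4 had 3.66, 2.89, 2.35 and 3.23 CPM and male GOF 1 to 4 had 0.106, 0.685, 0.1001 and 0.181 CPM. The 4 male GOF libraries lay below each of the male controls, whereas female GOF 3 lay among the female controls and the other 3 female GOF libraries lay above them. The fitted log2 fold change was -3.50 ± 0.702 (SE) for GOF against control in males and 1.80 ± 0.631 in females. Without male GOF 2, the highest of its group, the male value was -4.55.

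Tpsab1, the other tryptase, lies close to Tpsb2 on chromosome 17 (Tpsab1 at 25343245 to 25345562, minus strand, and Tpsb2 at 25366305 to 25369098, plus strand, GRCm38). It stood at 0.108, 1.61, 0.0615 and 0.557 CPM in female controls and at 2.54, 2.49, 0.358 and 0.943 CPM in female GOF. The male controls had 0.676, 0.672, 1.79 and 0.679 CPM and the male GOF libraries 0.0265, 0.114, 0 and 0.0302 CPM. Only 6 reads over 4 male GOF libraries were assigned to it, against 128 in male controls. That is a ratio of 0.0437, with an exact 95% counting interval of 0.0157 to 0.0977 that covers counting error only. The fitted log2 fold change was -4.41 in males, and -5.48 without male GOF 2, which held 4 of the 6 reads. The male groups did not overlap, and the female groups did, with female control 2 above 2 of the female GOF libraries. No 150-base stretch of a Tpsab1 or Tpsb2 transcript was shared with another annotated gene, and none of 50 bases. With the reads of both tryptases summed, the log2 fold change was -3.68 ± 0.745 in males and 1.70 ± 0.663 in females.

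Cma1 encodes a mast cell protease that is the counterpart by sequence of human chymase. It stood at 1.13, 2.52, 0.984 and 1.26 CPM in female controls and at 4.995, 6.75, 0.806 and 1.89 CPM in female GOF. Its male control values were 3.87, 2.37, 2.59 and 4.05 CPM and its male GOF values 0.265, 0.685, 0.250 and 0.211 CPM. The male groups did not overlap. The female GOF libraries split, with replicates 1 and 2 above each female control and replicate 3 below each of them. The fitted log2 fold change was -3.18 ± 0.604 in males and 1.30 ± 0.548 in females. Of the 50-base stretches of Cma1 transcripts, 5.38% also occur in the annotated gene Gm48934, and no stretch of 150 bases does.

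Mcpt4, on the same stretch of chromosome 14 as Cma1 (Cma1 at 55941451 to 55944675 and Mcpt4 at 56059629 to 56062313, both on the minus strand), encodes a chymase of connective tissue mast cells. It stood at 1.05, 1.65, 1.08 and 0.997 CPM in female controls and at 5.67, 4.65, 0.537 and 2.40 CPM in female GOF. Levels of 2.77, 2.78, 2.44 and 3.56 CPM in male controls compared with 0.0794, 0.400, 0.0751 and 0.302 CPM in male GOF. Each male control lay above each female control, and each male GOF library lay below each library of the other 3 groups. The fitted log2 fold change was -3.75 ± 0.641 in males and 1.47 ± 0.561 in females. Of the 50-base stretches of its transcripts, 5.48% also occur in Cma2 or Mcpt9, and no stretch of 150 bases does. In the 16 libraries Mcpt9 and Cma2 did not exceed 0.0923 and 0.0286 CPM.

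Cpa3 encodes carboxypeptidase A3, which trims the C-terminal ends of peptides in the same granules. It stood at 1.10, 2.64, 1.14 and 1.14 CPM in female controls and at 3.59, 4.39, 0.567 and 1.94 CPM in female GOF. In males it stood at 1.69, 2.75, 2.32 and 2.34 CPM in controls and at 0.477, 0.514, 0.325 and 0.151 CPM in GOF. Its male difference was the smallest of the 5 proteases, with a fitted log2 fold change of -2.62 ± 0.546, and its female one was 0.80 ± 0.502. The male GOF libraries again lay below each male control, and the female groups overlapped. Measured per length, Cpa3 made up 36.7% ± 16.9 of the FPKM of the 5 proteases in male GOF and 21.8% ± 5.24 in male controls. In male GOF that share rests on 29 to 84 protease reads per library.

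**Figure D1:**
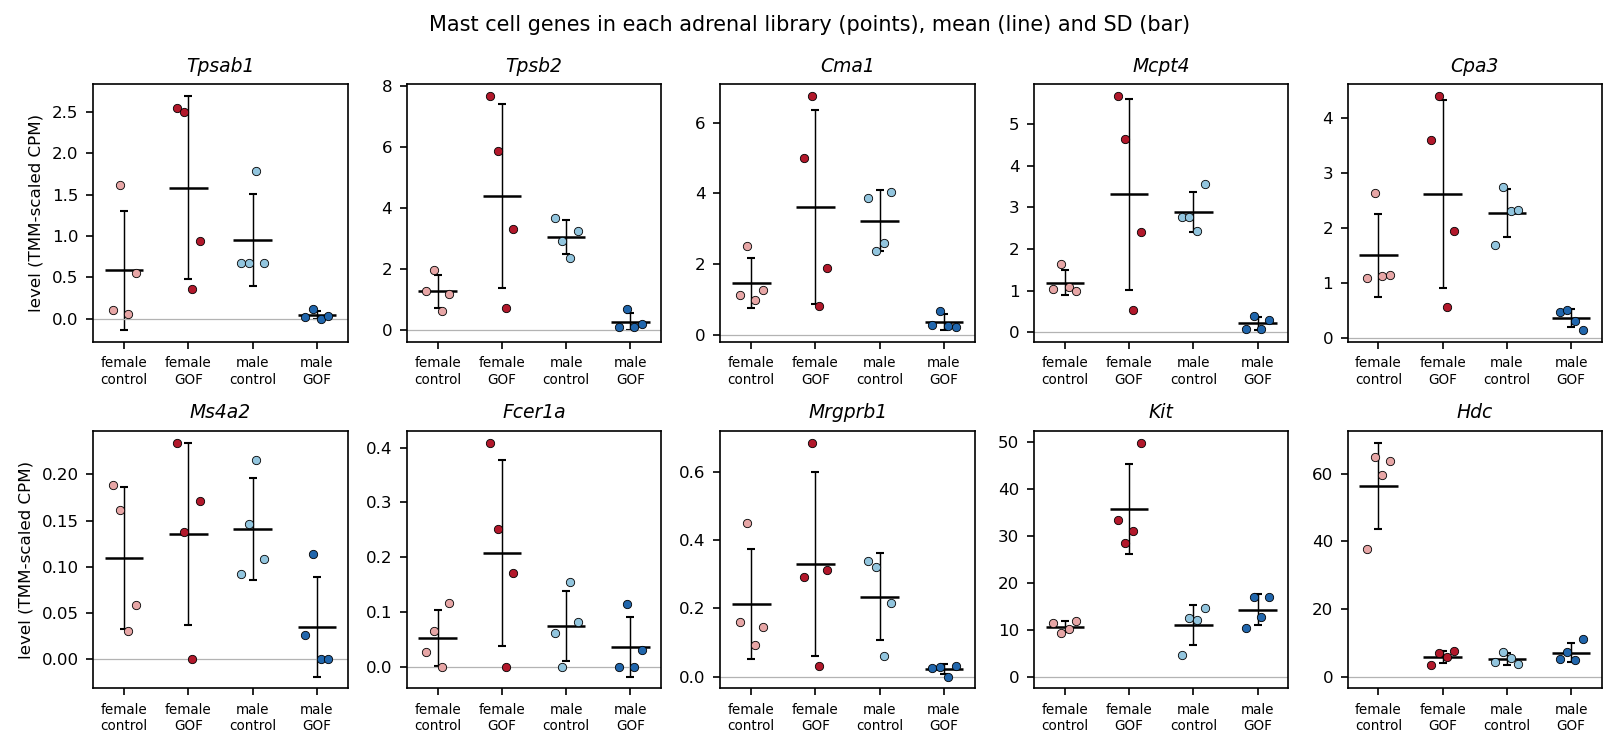
Levels of the 10 mast cell genes in TMM-scaled CPM, each panel with its own linear axis, for 4 libraries in each of 4 groups; points are libraries in the order 1 to 4, lines are means and bars are SD. The 5 proteases are lowest in male GOF and most spread in female GOF, Kit is highest in female GOF and Hdc is highest in female controls.

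Female GOF 3 and male GOF 2 carried much of the spread. The protease sum was 24.5, 24.1, 2.98 and 10.5 CPM in female GOF 1 to 4, so that replicate 3 lay below each female control, the lowest of which was at 3.88 CPM. Without it the female GOF mean was 19.7 ± 7.98 CPM (n = 3). In male GOF the sum was 0.953, 2.40, 0.751 and 0.875 CPM, and without replicate 2 the mean was 0.860 ± 0.102 CPM (n = 3). Male controls ranged from 11.46 to 13.85 CPM. Female GOF 3 was also the lowest of its group in the summed chromaffin markers, at 197 CPM against a group median of 371 CPM, and its part in the result was not tested.

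The receptors come next. Kit, the receptor for stem cell factor, did not follow the proteases: it was higher in female GOF than in the other 3 groups, in each library. It stood at 11.4, 9.22, 10.1 and 11.9 CPM in female controls and at 33.5, 28.4, 31.1 and 49.8 CPM in female GOF. In males it stood at 4.70, 12.6, 12.04 and 14.5 CPM in controls and at 10.3, 17.0, 12.8 and 17.0 CPM in GOF. Female GOF 3, the library with the lowest proteases of its group, had 31.1 CPM of Kit, close to the other female GOF libraries. The fitted log2 fold change of Kit for GOF against control was 1.74 ± 0.286 in female glands. In males, where the groups overlapped, it was 0.38 ± 0.280. Each male GOF library thus lay within or above the control range of Kit, while the proteases were below theirs. Per length, Kit averaged 7.60 FPKM over the 16 libraries and the most abundant protease, Tpsb2, 2.01 FPKM.

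The subunits of the high-affinity IgE receptor were near the limit of detection. Fcer1a, which encodes the IgE-binding alpha chain, had 53 reads in all libraries together, and Ms4a2, which encodes the signal-amplifying beta chain, had 59. Neither passed the filter on low counts. Of the 50-base stretches of Ms4a2 transcripts, 2.10% also occur in Ms4a4b. Fcer1a stood at 0.0269, 0.0645, 0 and 0.117 CPM in female controls, at 0.409, 0.252, 0 and 0.171 CPM in female GOF, at 0.0615, 0, 0.154 and 0.0815 CPM in male controls and at 0, 0.114, 0 and 0.0302 CPM in male GOF. Ms4a2 stood at 0.189, 0.161, 0.0308 and 0.0587 CPM in female controls, at 0.234, 0.137, 0 and 0.171 CPM in female GOF, at 0.0922, 0.146, 0.216 and 0.109 CPM in male controls and at 0.0265, 0.114, 0 and 0 CPM in male GOF. Both genes overlapped between the groups in each sex. For Ms4a2 the summed reads of GOF over control gave a ratio of 0.245 in males (5 against 19 reads, exact 95% counting interval 0.0716 to 0.679) and of 1.23 in females (20 against 15 reads, 0.597 to 2.575), where the interval included 1. For Fcer1a the ratio was 4.07 in females (31 against 7 reads, 1.76 to 10.96) and 0.466 in males (5 against 10 reads, 0.125 to 1.496), where the interval included 1. These intervals leave out the spread between mice.

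Mrgprb1 encodes a receptor of the MRGPR family, whose member Mrgprb2 is the best known sensor of cationic peptides on mouse mast cells. It stood at 0.162, 0.452, 0.0923 and 0.147 CPM in female controls and at 0.292, 0.686, 0.0298 and 0.314 CPM in female GOF. Male controls had 0.338, 0.322, 0.0618 and 0.217 CPM, and male GOF libraries 0.0265, 0.0286, 0 and 0.0302 CPM. Male GOF had 3 reads in all against 32 in male controls, a ratio of 0.0873 with an exact 95% counting interval of 0.0171 to 0.279. The male groups did not overlap, although male control 3 had only 2 reads. In females the groups overlapped (52 against 28 reads, ratio 1.71, 1.06 to 2.81), and female GOF 3 was again the lowest library of its group.

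Hdc encodes histidine decarboxylase, the enzyme that makes histamine, and its pattern was unlike that of each other member. It stood at 37.8, 65.0, 59.5 and 63.6 CPM in female controls and at 3.53, 7.02, 5.70 and 7.46 CPM in female GOF. In males it stood at 4.27, 7.34, 5.59 and 3.61 CPM in controls and at 5.30, 7.39, 4.78 and 11.01 CPM in GOF. The 4 female controls lay far above the other 12 libraries, which overlapped each other across groups. Hdc was 9.53-fold lower in female GOF than in female controls and 10.9-fold lower in male controls than in female controls. The fitted log2 fold change was -3.25 ± 0.321 for GOF against control in females, 0.45 ± 0.302 in males and -3.44 ± 0.324 for male against female controls. In female controls Hdc averaged 32.5 FPKM, against 1.57 FPKM for Cpa3, the highest of the 5 proteases there. Kit and Hdc together held 79.5% of the reads of all members. Which cells of the gland these reads came from was not tested.

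**Figure D2:**
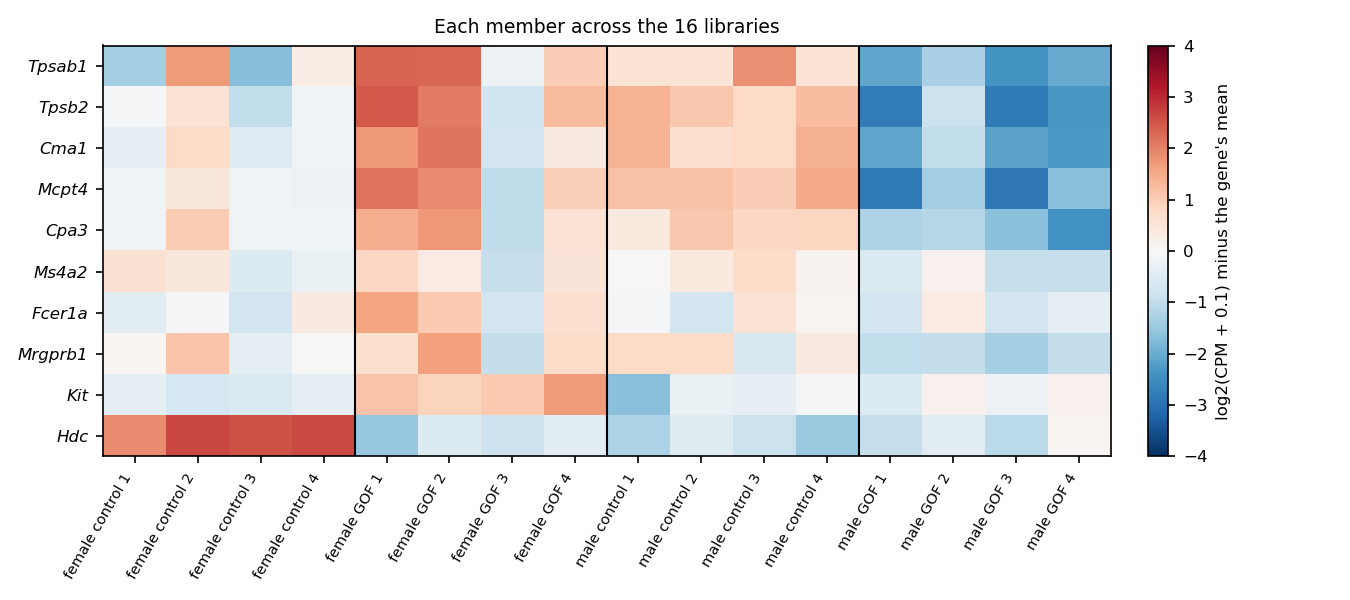
Each member, in rows, across the 16 libraries, in columns; colour is log2(CPM + 0.1) minus the mean of that gene over all libraries, from -4 (blue) to 4 (red). The proteases and Mrgprb1 are below their mean (blue) in each male GOF library and in female GOF 3, Fcer1a and Ms4a2 are above theirs in male GOF 2, and Kit and Hdc follow other columns.

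Ordered by the mean over all 16 libraries per length, the levels were 10.9 FPKM for Hdc, 7.60 for Kit, 2.01 for Tpsb2, 1.98 for Cma1, 1.81 for Cpa3, 1.70 for Mcpt4, 0.509 for Tpsab1, 0.116 for Mrgprb1, 0.102 for Fcer1a and 0.0920 for Ms4a2. The ranges over libraries of the 4 genes from Tpsb2 to Mcpt4 overlapped widely. The 3 lowest genes overlapped too, each from 0 and up to 0.411 FPKM for Mrgprb1, 0.4515 for Fcer1a and 0.208 for Ms4a2. After the group means were removed, the 15 pairs among the 5 proteases and Mrgprb1 had a Pearson r of log2 levels from 0.542 to 0.918 over 16 libraries, with a median of 0.737. The closest pair was Tpsb2 and Mcpt4. The 7 pairs of Kit with other tested members had r from -0.171 to 0.292, and the 7 pairs of Hdc from -0.133 to 0.292. These coefficients describe libraries that share depth and dissection, and no p-value is attached to them.

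The calls over the whole table are given next as a description, with the share of all 18214 tested genes called in the same comparison beside each. A gene was called when its p-value, adjusted over all tested genes by the Benjamini-Hochberg method after edgeR's quasi-likelihood test, was under 0.05. Of the 10 members, 8 passed the filter on low counts and were tested. For GOF against control in females, 4 were called, Tpsb2, Mcpt4 and Kit higher and Hdc lower, where 39.6% of all genes were called. The calls of Tpsb2 and Mcpt4 depended on single libraries and on the settings. Tpsb2 was not called without any 1 of female GOF 1, 2 or 4 or female control 1, 3 or 4, with log2 fold changes from 1.40 to 1.88. Mcpt4 was not called without any 1 of the 15 libraries other than female GOF 3, with log2 fold changes from 1.09 to 1.67. Both calls were also lost without the filter (1.78 for Tpsb2 and 1.44 for Mcpt4), with only the groups compared (1.78 and 1.45), with the range of the labels' animal numbers as covariate (1.75 and 1.47) and with limma on log2(FPKM + 0.1) (1.46 and 1.07). Mcpt4 lost its call as well with RLE factors (1.4525), upper-quartile factors (1.4547) and limma on log2(FPKM + 1) (0.80), and kept it in 2 of 26 alternatives. Tpsb2 kept its call in 14 of 27. Without female control 2, Tpsab1 (2.70) and Cma1 (1.68) were called as well, and without female GOF 3 Cma1 was called (1.59).

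For GOF against control in males, 6 were called, the 5 proteases and Mrgprb1, each lower, where 36.9% of all genes were called. This count was 6 whichever library was left out. With limma on log2(FPKM + 1), a scale that compresses low values, Tpsab1 lost its call (-0.62). For male against female controls, 1 was called, Hdc, where 23.4% of all genes were called. For male against female GOF, 7 were called lower in males, each tested member other than Hdc, where 29.6% of all genes were called. In this comparison the log2 fold change ranged from -5.14 for Tpsab1 to -1.32 for Kit. Without male GOF 2 it was -6.19 for Tpsab1 and -5.06 for Tpsb2, and without female GOF 2 it was -3.14 for Mrgprb1 in place of -3.81. The calls of Tpsab1 (-4.75) and Mrgprb1 (-3.42) were lost when the animal number range entered as a covariate. Only the range of lowest animal numbers held both sexes, so with this covariate the sexes were compared directly within that range alone. These comparisons share groups of libraries, so their calls are not independent of each other.

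The difference between the sexes in the GOF effect, the interaction term, was called for 6 members, where 4.21% of all genes were called. It was -5.86 ± 1.38 on the log2 scale for Tpsab1, -5.30 ± 0.943 for Tpsb2, -5.23 ± 0.850 for Mcpt4, -4.48 ± 0.813 for Cma1 and -3.42 ± 0.739 for Cpa3. A negative value means a GOF change that was lower in males than in females. Without male GOF 2 it was -6.89 for Tpsab1 and -6.32 for Tpsb2, and without female control 2 it was -7.11 for Tpsab1. For Hdc it was 3.70 ± 0.435. Kit at -1.37 ± 0.396 and Mrgprb1 at -3.96 ± 1.2 were not called. Kit was called with DESeq2 (-1.33) and without male control 1 (-1.62), and Mrgprb1 without female GOF 3 (-4.31). Tpsab1 was not called without any 1 of female GOF 2, female control 4, male GOF 1, 3 or 4 or male control 3, with values from -5.83 to -5.36, and neither with the covariate (-6.06), without the filter on low counts (-5.80), with limma on log2(FPKM + 1) (-1.17) nor without female control 1 and male control 2 (-5.64). Without those 2 libraries Cpa3 was not called either (-3.19). The median log2 fold change over all tested genes lay between -0.0554 and 0.0777 in these 5 contrasts.

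**Figure D3:**
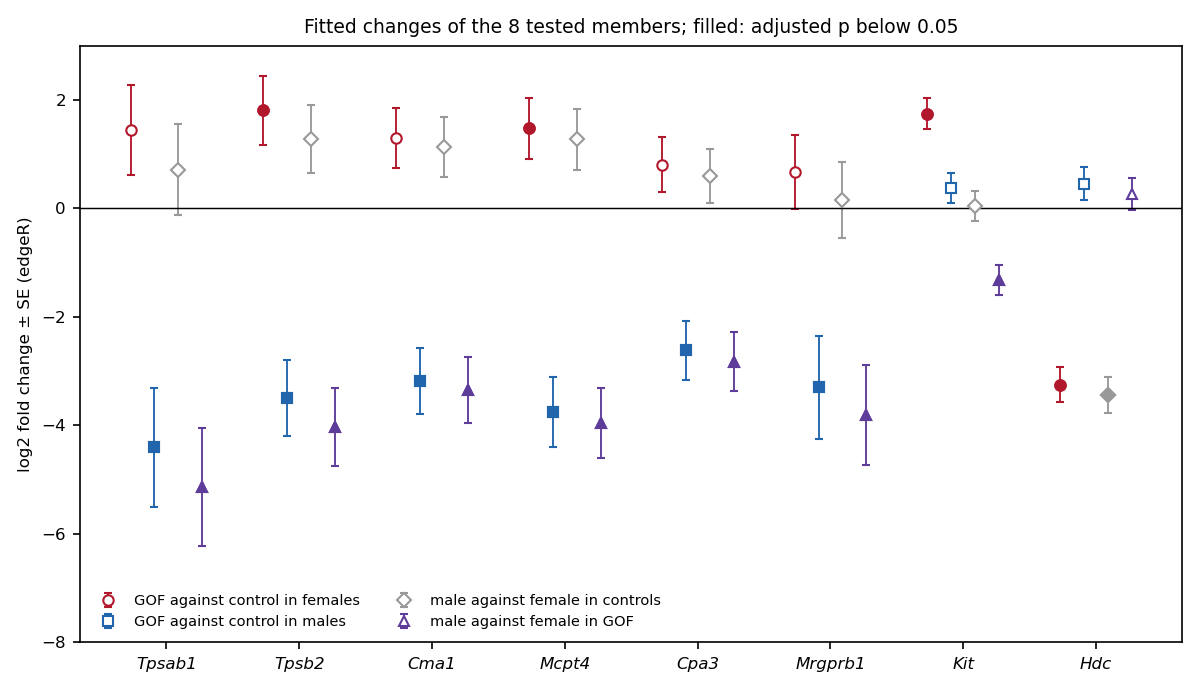
Log2 fold changes with standard errors from edgeR for the 8 tested members in 4 comparisons; filled symbols mark an adjusted p-value below 0.05, and the comparisons share libraries. GOF against control lies above 0 in females and below 0 in males for the 5 proteases and Mrgprb1, while Hdc is low in both comparisons against female controls.

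Separation of the groups was also counted without a model. For GOF against control in females, 1 of 10 members had each GOF library above each control (Kit) and 1 below (Hdc), against 37.8% of all tested genes that separated in either direction. In males 6 of 10 lay below, against 33.1% of genes. Between male and female controls 2 lay above, Tpsb2 and Mcpt4, and 1 below, Hdc, against 25.3%. Between male and female GOF 6 of 10 lay below, against 29.1%.

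Other genes of mast cell biology, 71 in 7 lists that hold none of the members, were examined in the same fits. Of these 46 passed the filter. In female GOF glands 7 were called higher and 14 lower than in controls. In male GOF glands 12 were higher and 9 lower. Between the sexes 6 were higher and 4 lower in male controls, and 18 higher and 5 lower in male GOF. The share called was 45.7% in both GOF comparisons, against 39.6% of all genes in females and 36.9% in males. Between controls it was 21.7% against 23.4% of all genes, and between GOF glands it was 23 of 46 against 29.6%. The share in both GOF comparisons and between controls was thus near that of all genes. With the range of the labels' animal numbers as a covariate, the called genes of these lists were 6 of 46 between controls and 8 of 46 between GOF glands, while the called genes of all 18214 fell from 4266 to 1311 and from 5394 to 1336. In that fit the sexes were compared directly only within the range of lowest numbers, the only range with both sexes.

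Among growth factors and alarmins, Kitl and Il33 moved differently. Kitl encodes stem cell factor, the ligand of KIT. It stood at 46.1 ± 35.3 CPM in female controls, 136 ± 42.9 in female GOF, 38.9 ± 20.1 in male controls and 27.8 ± 9.67 in male GOF. It rose in females (log2 fold change 1.57 ± 0.521, edgeR adjusted p = 0.0280) and was lower in male than in female GOF (-2.29 ± 0.535, adjusted p = 0.00520), and the interaction term was not called (adjusted p = 0.132). The call between GOF glands was lost with the animal number range as a covariate (-1.81), where only the lowest range held both sexes. The female call was lost with that covariate, without the filter or with only the groups compared (each 1.54), and without any 1 of female GOF 1 or 4 or female control 1 or 3, with log2 fold changes from 1.29 to 1.43. The female groups overlapped, since 1 control reached 91.0 CPM and 1 GOF library was at 81.7 CPM. Il33, an alarmin that activates mast cells through ST2, fell in females (11.2 ± 0.405 to 4.33 ± 0.567 CPM, edgeR adjusted p = 1.24e-05) and in males (28.1 ± 6.0 to 9.27 ± 1.28 CPM, adjusted p = 2.42e-06). Il1rl1, which encodes ST2, was called lower in male GOF at 0.367 ± 0.193 CPM against 0.945 ± 0.424 in male controls (edgeR adjusted p = 0.0437), a call that was lost in 15 of 24 alternatives, among them 10 of 16 leave-one-out fits (-1.47 to -1.03) and the fit with upper-quartile factors (-1.30). Il3, Il9 and Mcpt1 had no reads in any library.

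Of the IgE receptor signalling list 8 of 10 genes rose and 1 fell in male GOF, where 36.9% of all genes were called, and 3 rose and 3 fell in female GOF, where 39.6% were. The median log2 fold change of the list was 0.78 in males and 0.30 in females, against 0.00708 and 0.0519 over all tested genes. Fcer1g, the gamma chain that IgE receptors share with other Fc receptors, was at 11.2 ± 1.80 CPM in male controls and 19.6 ± 7.46 in male GOF (log2 fold change 0.81 ± 0.255, edgeR adjusted p = 0.0224). It was not called without male GOF 1 (0.50), the library with the highest macrophage sum, or without male control 2 (0.70). Syk, the kinase recruited to it, rose in both sexes, with log2 fold changes of 0.98 ± 0.283 in males and 0.94 ± 0.285 in females. The male call of Syk was lost without male GOF 1 (0.55), with only the groups compared (0.98) and without female control 1 and male control 2 (0.90), and the female one without any 1 of female GOF 2 or 3 or female control 3 (0.80 to 0.86). Lyn, a kinase that acts upstream of SYK, fell from 50.7 ± 6.32 to 30.6 ± 2.22 CPM in female glands and rose from 29.1 ± 3.08 to 37.5 ± 5.01 CPM in male ones. The call in males was lost without male GOF 1 (0.26), male GOF 2 (0.33) or male control 4 (0.31). Lyn was also the 1 gene of the 46 whose interaction term was called (1.09 ± 0.157, edgeR adjusted p = 0.00194). Several of its genes are also expressed by macrophages, and 10 macrophage markers summed to between 593 and 1750 CPM in male GOF and between 406 and 553.4 CPM in male controls. Their part in the result was not tested.

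Of the transcription factors, Gata2, which mast cells require, fell in both sexes. Female controls had 68.6 ± 22.5 CPM and female GOF 8.84 ± 2.38 CPM (edgeR adjusted p = 2.22e-06), and male controls 99.9 ± 28.9 CPM and male GOF 13.2 ± 1.30 CPM (adjusted p = 1.5e-06). Chromaffin cells express Gata2 too, and 8 chromaffin markers summed to between 4771 and 11450 CPM in the 8 control libraries and between 197 and 882 CPM in the 8 GOF libraries. The part of these cells in the Gata2 result was not tested. Mitf, a transcription factor that KIT signalling acts on, fell by 0.59 ± 0.173 in females and by 0.56 ± 0.174 in males on the log2 scale. The male call was lost without male GOF 3 (-0.44), male control 1 (-0.50) or male control 2 (-0.49), without the filter (-0.53) and with only the groups compared (-0.56). Gata1 rose in both sexes, in females from 0.105 ± 0.0439 to 1.57 ± 0.477 CPM and in males from 1.58 ± 1.179 to 8.98 ± 3.07 CPM. It was thus highest in male GOF, the group with the lowest proteases. Erythroid cells also use GATA1, and 8 erythroid markers summed to a median of 723.5 CPM in female controls, 547.7 in female GOF, 1326 in male controls and 499 in male GOF. Of the 8 markers 3 were called higher and 0 lower in female GOF, with a median log2 fold change of 0.52, and 3 were called lower and 0 higher in male GOF, with a median of -1.02. Those shares of 37.5% were near the 39.6% and 36.9% of all genes. Their part in the Gata1 result was not tested.

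**Figure D4:**
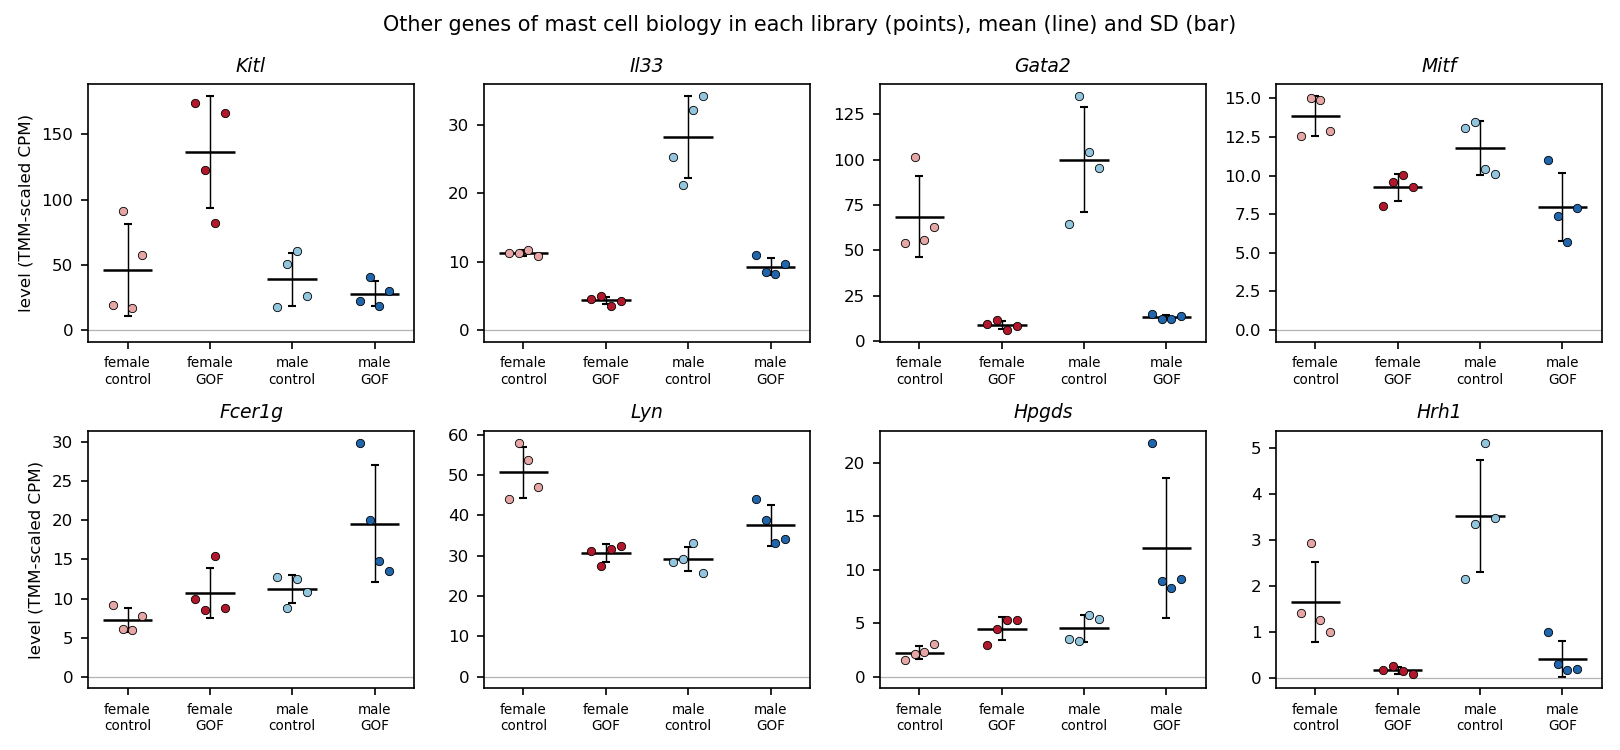
Levels in TMM-scaled CPM of 8 other genes of mast cell biology, with 4 libraries (points), mean (line) and SD (bar) in each group. Kitl is highest in female GOF, Il33, Gata2, Mitf and Hrh1 are lower in GOF of both sexes, and Fcer1g and Hpgds are highest in male GOF.

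Genes of mediator synthesis did not share a direction. Hpgds, the prostaglandin D2 synthase of blood cells, rose in both sexes and reached 12.04 ± 6.55 CPM in male GOF against 4.50 ± 1.27 in male controls (log2 fold change 1.42 ± 0.333, edgeR adjusted p = 0.00389). In females its log2 fold change was 1.005 ± 0.335 (adjusted p = 0.0271), and this call was lost without any 1 of female GOF 2, 3 or 4 or female control 1, 2 or 3 (0.86 to 1.01). Slc18a2, the vesicular transporter that loads histamine and serotonin, fell in females (22.0 ± 7.58 to 4.91 ± 1.76 CPM, edgeR adjusted p = 0.00330) and in males (59.5 ± 56.0 to 5.74 ± 1.02 CPM, adjusted p = 0.000147). Male control 2 was at 142.8 CPM and the other male controls between 21.67 and 38.57 CPM, and without it the log2 fold change in males was -2.47 in place of -3.37. Slc18a2 also serves catecholamine-storing cells, whose markers were lower in GOF as given above.

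Of the other granule genes, 4 of 10 passed the filter. Srgn, the proteoglycan core that packs granule proteases, was between 13.5 and 27.0 CPM in each library and was not called in either sex. Ndst2, which sulphates heparin, was called higher in male GOF (log2 fold change 0.36 ± 0.0900, edgeR adjusted p = 0.00613). Serpinb1a, a serine protease inhibitor, was lower in males than in females, at 22.2 ± 12.3 against 211 ± 54.4 CPM in controls and 41.7 ± 32.0 against 233 ± 57.1 CPM in GOF, where the log2 fold change of -2.49 was -3.17 without male GOF 2. Of the mucosal mast cell proteases, Mcpt1 had no reads, and Mcpt2 was at 5.19 CPM (227 reads) in female GOF 2 and did not exceed 0.430 CPM in the other 15 libraries. In female GOF 2 Mcpt2 thus had more reads than Mcpt4 (203) or Cpa3 (192). Of the surface receptors Il3ra, the interleukin 3 receptor alpha chain, rose in female GOF to 27.5 ± 7.33 from 13.2 ± 3.10 CPM.

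Among receptors and breakdown enzymes of mast cell mediators, 5 of 6 tested genes fell in female GOF and none rose, where 39.6% of all genes were called, and 3 fell and 1 rose in male GOF, where 36.9% were. Hrh1, the histamine H1 receptor, fell in females, 1.65 ± 0.871 to 0.171 ± 0.0785 CPM, and in males, 3.53 ± 1.22 to 0.427 ± 0.391 CPM. Male GOF 1 was at 1.01 CPM and the other male GOF libraries at 0.314 CPM or less, and without it the log2 fold change in males was -3.92 in place of -3.03. Hnmt, which inactivates histamine by methylation, fell in females, 17.8 ± 1.26 to 11.1 ± 2.19 CPM, and in males, 14.4 ± 3.19 to 9.51 ± 1.63 CPM. The edgeR adjusted p for Hnmt was 0.00747 in females and 0.0165 in males, where the call was lost without male control 2 (-0.48). Cysltr2, a receptor for cysteinyl leukotrienes, was the gene that rose in males, from 0.914 ± 0.521 to 2.53 ± 1.03 CPM. Its call was lost without male GOF 4 (log2 fold change 1.19) and with only the groups compared (1.46).

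Other cell types that the dissected tissue could hold were followed by marker lists. Capsule and fibroblast markers fell in both sexes, 7 of 8 in females (39.6% of all genes were called) and 8 of 8 in males (36.9%), from between 1281 and 4006 CPM in male controls to between 591 and 738 CPM in male GOF. Adipocyte markers fell as well, 6 of 7 in females and 7 of 7 in males, and summed to between 344 and 555.1 CPM in female GOF and between 292 and 374 CPM in male GOF. The part of these tissues in the protease levels was not tested. Lymphocyte markers summed to 60.8 CPM in male GOF 2 and to between 7.38 and 11.6 CPM in the other male GOF libraries. Basophils share several of the members with mast cells. Of a basophil list of 4 genes, Ifitm1, which other cells express as well, was the 1 gene tested and fell in females (3.22 ± 1.11 to 0.983 ± 0.507 CPM, edgeR adjusted p = 0.00424) and in males (6.07 ± 2.76 to 2.51 ± 0.811 CPM, adjusted p = 0.0207). The basophil proteases Mcpt8 and Prss34 did not exceed 0.143 and 0.400 CPM in the 16 libraries, both reached in male GOF 2.

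**Figure D5:**
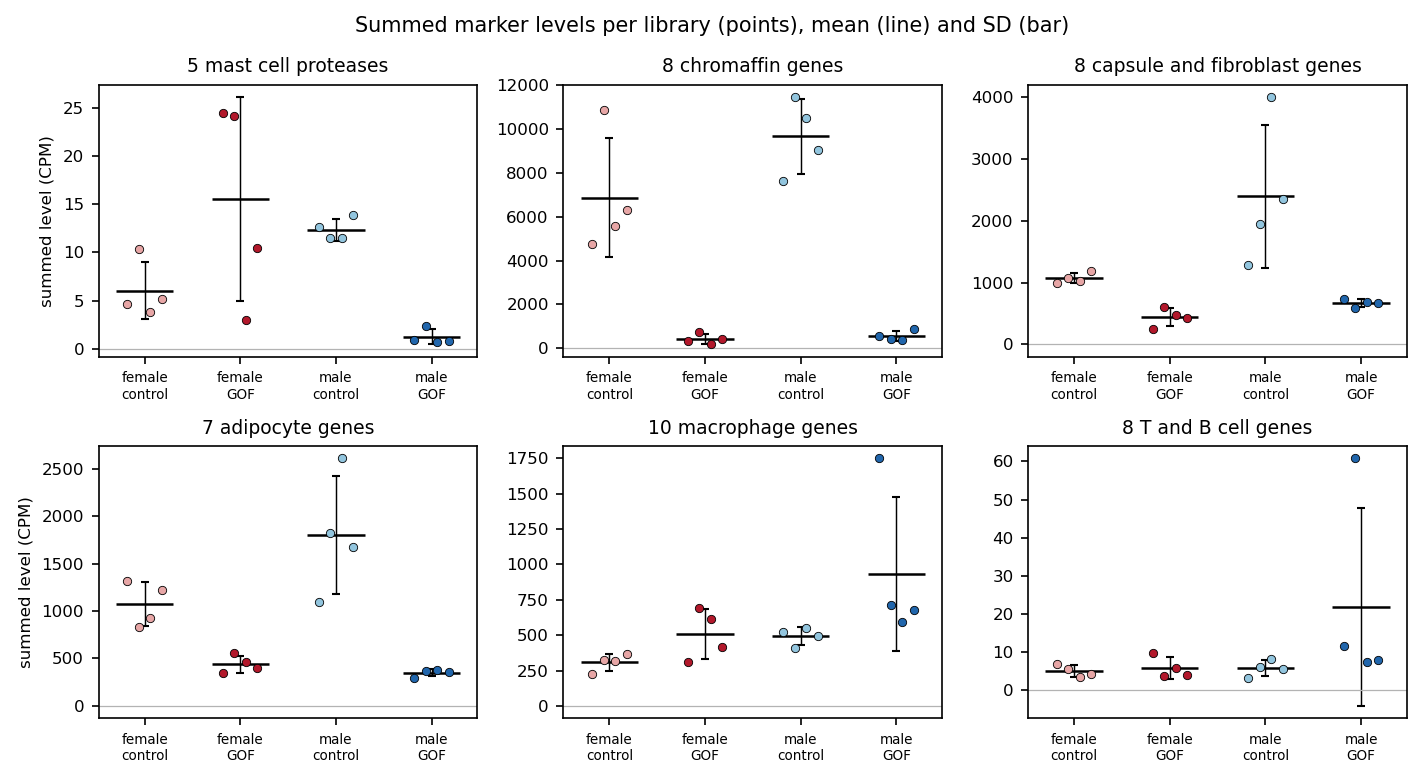
Summed levels in TMM-scaled CPM of the 5 mast cell proteases and of marker lists of 5 other cell classes, with 4 libraries (points), mean (line) and SD (bar) in each group. The chromaffin, capsule and adipocyte lists are low in GOF of both sexes, and the proteases are low in male GOF and spread widely in female GOF.

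Within groups, the protease sum was set against each of the 16 other marker lists after removing the group means of the log2 levels. The highest coefficients were an r of 0.589 (rho 0.621) with the eosinophil list, whose sum did not exceed 1.49 CPM, and 0.583 (rho 0.526) with the neutrophil list. Without male GOF 2 and female GOF 1, the 2 libraries farthest from the median, these were 0.370 and 0.351. With the chromaffin list r was 0.518, and 0.0470 without female GOF 2 and 3. No p-value is given because the sum is a score over chosen genes.

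Among the genes whose within-group pattern was most like the mean of the 8 tested members were Psg16 (r = 0.881 over 16 libraries), Tbx20 (0.857), Unc80 (0.855), Sidt1 (0.850), Unc79 (0.849), Scg3 (0.837), Spock1 (0.832), Tlx2 (0.830) and Scrt1 (0.825). The likeness was measured between log2 levels with group means removed and the mean of the members' standardised values. They were picked from the 10 highest of the 18214 tested genes, so that high coefficients arise from the picking, and they carry no test.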

How the data were processed

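Total RNA of whole adrenal glands from 16 mice was column-purified, kept at an integrity number of at least 7.0 and sequenced as 150 bp paired-end reads, per the labels' protocols. The submitters' processing notes name Bowtie2 2.2.3, TopHat2 2.0.12, HTSeq 0.6.1 and DESeq 1.18.0 without their roles; build and strandness are not given in the sources used here. The authors deposited whole-number counts per Ensembl gene and FPKM values, which scale reads to gene length and library total. Symbols and coordinates come from GENCODE M21 (GRCm38). The 10 members and all gene lists were chosen with earlier results of these data known.

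Counts of all 54838 genes were filtered with filterByExpr (18214 kept), scaled by TMM and fitted with edgeR 4.0.16 (robust quasi-likelihood, 1 mean per group, 16 libraries) in R 4.3.3, with Benjamini-Hochberg adjustment at 0.05. Tried on simulated counts for GOF against control in females, the fit recovered 53% of 2-fold and 80.8% of 4-fold changes. Of its calls there 5.67% were false. Libraries held 31275146 to 43003968 counts, and a gene with 3 counts or fewer per library was taken as at the floor. Groups came from the labels, and replicate numbers follow accession order and pair nothing. No 2 libraries of a group agreed within sampling noise. Alternatives were DESeq2 1.42.0, RLE and upper-quartile factors, no filter, a minimum of 10 counts in each library, the compared groups alone, limma 3.58.1 on log2(FPKM + 1) and log2(FPKM + 0.1), each library left out, female control 1 and male control 2 left out, and the range of the labels' animal numbers as a covariate. Of the animal number ranges only the lowest held both sexes. Female GOF 4 was alone in its range, so with the covariate it did not inform the female comparison. Chosen after seeing the data were leaving out female GOF 1 and male GOF 2, and summing the tryptases. Named genes are all members, and called genes of the other lists whose mean reached 1 CPM in either group compared, or the 2 to 4 most abundant of a list. Not every gene of the other lists that meets this rule is named. Il1rl1, Mcpt1, Mcpt2, Mcpt9, Cma2, Il3, Il9, Mcpt8 and Prss34 fall outside this rule and were named after their values were seen. Of the 10 genes most like the members, 1 is not reported here.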

Additional observations from a re-analysis of the deposited data

Results flagged for a closer look

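Values that stood apart from their group by Dixon's test were 7 of 56 groups of 4 libraries examined (14 quantities in 4 groups), where chance gives about 1 in 20. Male GOF 2 was the high library for Tpsb2 (0.685 CPM), for Cma1 (0.685 CPM) and for the sum of the 5 proteases (2.40 CPM). Female control 2 was the high library for Cpa3 (2.64 CPM) and for Mcpt4 (1.65 CPM). Male control 3 was the high library for Tpsab1 (1.79 CPM). Male GOF 3 was apart for Mrgprb1 because it had no read (0 CPM) where the other 3 libraries had 1 each.

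By the interaction term of the edgeR fit, the GOF change differed between the sexes in 6 of the 8 tested members. It was also called for 1 of the 46 other mast cell genes tested, where 4.21% of all genes were called. As male minus female change on the log2 scale, the difference was -5.86 for Tpsab1, -5.30 for Tpsb2, -5.23 for Mcpt4, -4.48 for Cma1 and -3.42 for Cpa3. Each of these proteases was lower in GOF than in control males, in 4 of 4 libraries. For Hdc the difference was 3.70, with 4 of 4 female GOF libraries below each female control. For Lyn it was 1.09.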

How the results depend on the processing

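No paired analysis was possible because the labels give no replicate numbers. Of 1034 values of single members under alternatives, 957 kept their direction and their side of the threshold, 51 lost the call, 9 gained it and 17 changed sign. Of 1119 values of other named genes, in comparisons where they were called, 1004 kept the call and 115 lost it with no change of sign. The cause of the changes was not tested, except that the minimum of 10 counts in every library leaves 2 members to test.

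Members called for GOF against control in females were 4 of 8 tested, where 39.6% of all genes were called. They were 2 without the filter, with at least 10 counts in every library, with only the groups compared, with limma on log2(FPKM + 0.1), without female control 1 and male control 2, with the animal number range as covariate and without female GOF 1 and male GOF 2, and 2 to 5 with 1 library left out. Tpsb2 lost its call in 6 and Mcpt4 in 15 of the 16 leave-one-out fits. With both tryptases summed, the edgeR adjusted p was 0.0539. In males the 6 called members, where 36.9% of all genes were called, became 0 with at least 10 counts. Between controls 1 member was called, where 23.4% of all genes were called. The count became 3 with only the groups compared, and was 1 to 2 with 1 library left out. Between male and female GOF 7 members were called, where 29.6% of all genes were called. Of these, Tpsab1 and Mrgprb1 lost their calls with the covariate, and with at least 10 counts the 7 became 1. In the interaction term 6 were called, where 4.21% of all genes were called, and 1 with at least 10 counts. Other mast cell genes called between controls were 10 of 46, where 23.4% of all genes were called. They were 6 with the covariate and 7 to 16 with 1 library left out. Between male and female GOF they were 23 of 46, where 29.6% of all genes were called. Here they were 8 with the covariate and 14 to 24 with 1 library left out. The shares of all genes are those of the main fit.

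Changes of sign concerned small differences that were not called. Kit between controls (0.04 on the log2 scale) was -0.0046 with upper-quartile factors, -0.0014 without the filter, -0.0197 with only the groups compared, -0.0226 and -0.053 with limma (+ 1 and + 0.1), -0.17 with the covariate, -0.0223 without female GOF 1 and male GOF 2, and -0.12 to 0.29 with 1 library left out. Mrgprb1 between controls (0.15) was -0.15 without female control 1 and male control 2, and -0.0913 (without female control 3) to 0.79 with 1 library left out. Mrgprb1 in females (0.67) was -0.0253 (without female GOF 2) to 1.30 with 1 library left out, and Hdc between male and female GOF (0.26) was -0.0141 (without male GOF 4) to 0.43.

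Over all genes, the interaction term called 766 genes, 1466 with DESeq2, 408 without the filter and 377 at the lowest with 1 library left out. Between controls 4266 genes were called, 1311 with the covariate and 2650 without female control 3, and between male and female GOF 5394, and 1336 with the covariate. The fit with the covariate compared the sexes directly only within the lowest animal number range. Fcer1a, Ms4a2, Mrgprb1 and Tpsab1 in male GOF are limited by depth, with 3 to 6 reads over 4 libraries.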
